A study of Mus musculus with 10 samples.

Results

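The transcripts described here belong to 44 genes of the cell cycle and DNA replication, chosen by name, of 28454 gene symbols measured. Of these, 15 act in S phase, when DNA is copied, 25 act around mitosis, and 4 (Ccne1, Ccne2, E2f1 and Mybl2) are cyclins and transcription factors of the G1/S transition. RNA was sequenced from CD31-positive cells of B16F10 melanomas, a pigmented tumour line that grows in C57BL/6 mice. All 10 libraries came from tumours of adult mice, after depletion of CD11b-positive myeloid cells and magnetic selection for CD31. The 4 wild-type libraries carry the strain label Cdh5-CreERt2, a Cre recombinase that is driven by the promoter of the endothelial gene Cdh5 and is active only with an inducing drug. The 6 Shb-inactivated libraries carry the same transgene with the Shb gene flanked by loxP sites (Shbflox/flox), so that Shb is removed in endothelium and not in the tumour cells or other host cells. The inducing treatment is not given in the sources used here. Shb encodes an SH2-domain adaptor protein that acts below the VEGF receptor, and the comparison asks how its loss alters transcripts of tumour endothelium.

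Dividing cells make these transcripts in waves. Factors of the E2F family drive the genes for origin licensing, the replicative helicase and nucleotide supply as cells enter S phase, and the MuvB complex with B-Myb (Mybl2) and Foxm1 drives the mitotic genes in G2. Most endothelium of an adult is quiescent, whereas vessels that grow in a tumour hold cycling endothelial cells, so the summed level of these genes in a sorted sample is commonly read as a sign of how many of its cells divide.

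The labelled cell type and the inactivation were visible in the libraries. Shb stood at 2.78 to 5.44 FPKM (a fragment count scaled for the size of the transcript and of the library) in wild-type libraries and at 0.37 to 1.44 FPKM in inactivated ones. All 16 endothelial markers had rows, and their summed level was 3943 to 5102 FPKM in wild-type and 4586 to 6548 FPKM in inactivated libraries. Transcripts of other cells were present to unequal degrees. Melanoma markers (15 of 16 with a row, none at 0) summed to 105 to 1330 FPKM in wild-type and 17.9 to 457 FPKM in inactivated libraries. Macrophage markers (16 of 16, none at 0) summed to 7467, 5576 and 5160 FPKM in the third wild-type library and replicates 3 and 4 of the Shb-inactivated group. The other 7 libraries had 81.9 to 738 FPKM. Shb-inactivated replicates 1 and 2, with wild-type replicate 1, stood apart by a low sum of small nucleolar RNAs, 636 to 1851 FPKM against 3138 to 11473 FPKM elsewhere. FPKM keeps no read totals, so sequencing depth is unknown. The labels' series text counts 4 and 6 mice without tying each library to an animal, and p-values therefore reflect library spread only, which may be technical in part.

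Promoter windows of the S phase and the mitotic genes differed in how often they held 3 short motifs, and are shown for genes of both kinds because the 2 sets varied together across the libraries. RefSeq windows on GRCm38.p6, each of 250 bases before and 50 after an annotated start, were found for 36 of the 44 genes (39 windows). In 35 of the 39 a GENCODE M21 transcript of the gene starts within the window. On both strands, TTTGAA with its variant TTCGAA was searched as the core of the CHR, an element bound by MuvB complexes. The box CCAAT, bound by the factor NF-Y, was searched too, and so were TTCCCGC with its variant TTGGCGC, forms bound by E2F factors. The CHR core stood in 18 of 22 mitotic windows (81.8%), in 3 of 14 S phase windows (21.4%), in 14.03% of 11472 windows of genes tested and in 19.2% of 32851 windows of all genes. An E2F form stood in 8 of 14 S phase windows (57.1%), in 5 of 22 mitotic windows (22.7%), in 12.0% of windows of genes tested and in 6.81% of all windows. CCAAT stood in 20 of 22 mitotic windows (90.9%), in 10 of 14 S phase windows (71.4%), in 37.5% of windows of genes tested and in 37.4% of all windows. Some windows of 1 gene overlap. By gene, 16 of 20 mitotic and 3 of 13 S phase genes held a CHR core, and 4 of 20 and 7 of 13 held an E2F form. The 3 G1/S windows held none of these letters, and 2 of them hold no GENCODE transcript start: that of E2f1 lies wholly inside the gene, downstream of the nearest start (at -294 from the RefSeq start), and that of Mybl2 ends just before its nearest start, 52 bases after the RefSeq start. These matches are letters in a window and not measured binding sites.

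**Figure D1:**
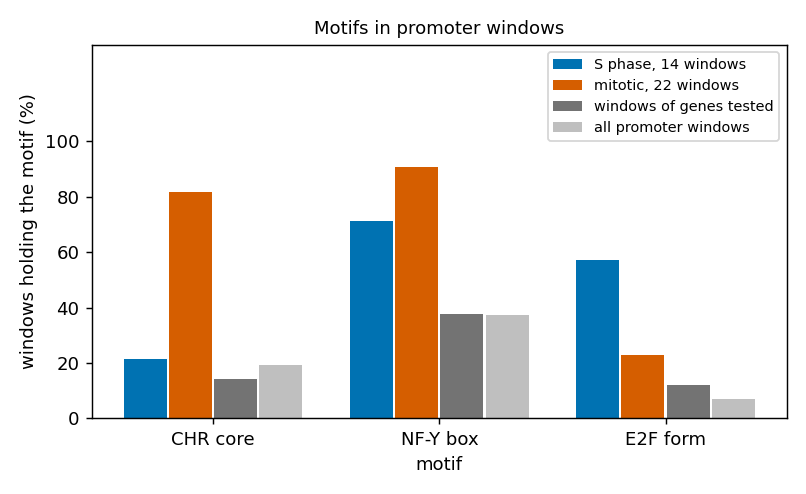
Share of promoter windows, in percent, that hold the CHR core, the NF-Y box or an E2F form, for S phase genes (14 windows), mitotic genes (22 windows), genes tested and all genes. The CHR core stands in 81.8% of mitotic and 21.4% of S phase windows, and the E2F form in 22.7% and 57.1%.

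The windows of 3 mitotic genes, Cdk1 (the kinase that starts mitosis), Ccnb2 (one of its cyclins) and Cdc20 (an activator of the anaphase-promoting complex), and of 3 subunits of the replicative helicase, Mcm3, Mcm5 and Mcm6, are shown as examples picked after the matches were seen. Other helicase subunits differ from these: the Mcm2 window holds 1 CHR core and no E2F form, and 1 of 2 Mcm7 windows holds both. That Mcm7 window holds no GENCODE start, the nearest lying 65 bases after the RefSeq start. The other Mcm7 window, which holds a start, has 1 E2F form and no CHR core. In Mcm5 the nearest GENCODE start lies 60 bases after the RefSeq start, just outside the window. Capitals mark every match on either strand, so a CHR core can also read TTCAAA, the NF-Y box can read ATTGG and an E2F form can read GCGGGAA or, for its variant, GCGCCAA.
Cdk1, chr10:69352863-69353162, minus strand: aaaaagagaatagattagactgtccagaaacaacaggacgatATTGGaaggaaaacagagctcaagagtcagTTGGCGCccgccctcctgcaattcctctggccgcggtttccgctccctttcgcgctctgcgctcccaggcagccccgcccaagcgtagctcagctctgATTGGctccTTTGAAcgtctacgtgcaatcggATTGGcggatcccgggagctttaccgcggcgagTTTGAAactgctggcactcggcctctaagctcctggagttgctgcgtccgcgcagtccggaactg
Ccnb2, chr9:70421505-70421804, minus strand: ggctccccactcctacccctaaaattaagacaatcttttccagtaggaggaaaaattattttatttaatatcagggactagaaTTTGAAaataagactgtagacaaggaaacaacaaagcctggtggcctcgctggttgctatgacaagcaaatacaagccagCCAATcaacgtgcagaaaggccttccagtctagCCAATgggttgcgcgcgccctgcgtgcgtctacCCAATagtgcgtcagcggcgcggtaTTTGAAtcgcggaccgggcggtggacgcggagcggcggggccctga
Cdc20, chr4:118437294-118437593, minus strand: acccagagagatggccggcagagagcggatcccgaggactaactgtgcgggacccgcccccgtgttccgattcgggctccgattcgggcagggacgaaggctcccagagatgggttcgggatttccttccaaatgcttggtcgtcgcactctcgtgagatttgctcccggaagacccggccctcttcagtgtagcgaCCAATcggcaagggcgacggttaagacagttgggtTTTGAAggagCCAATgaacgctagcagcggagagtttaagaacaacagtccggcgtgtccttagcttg
Mcm3, chr1:20820263-20820562, minus strand: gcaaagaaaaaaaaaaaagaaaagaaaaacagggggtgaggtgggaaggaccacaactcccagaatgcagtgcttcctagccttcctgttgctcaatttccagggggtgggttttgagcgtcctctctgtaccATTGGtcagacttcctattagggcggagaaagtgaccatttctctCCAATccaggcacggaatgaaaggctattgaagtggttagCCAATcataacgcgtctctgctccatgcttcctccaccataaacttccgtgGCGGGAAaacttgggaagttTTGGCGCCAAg
Mcm5, chr8:75109259-75109558, plus strand: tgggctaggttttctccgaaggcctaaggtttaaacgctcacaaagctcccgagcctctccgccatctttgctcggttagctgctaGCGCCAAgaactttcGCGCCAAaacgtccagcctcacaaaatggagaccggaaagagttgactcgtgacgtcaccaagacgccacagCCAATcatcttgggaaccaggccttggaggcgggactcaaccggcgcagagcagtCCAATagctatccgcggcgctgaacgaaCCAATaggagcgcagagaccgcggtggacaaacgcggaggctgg
Mcm6, chr1:128359656-128359955, minus strand: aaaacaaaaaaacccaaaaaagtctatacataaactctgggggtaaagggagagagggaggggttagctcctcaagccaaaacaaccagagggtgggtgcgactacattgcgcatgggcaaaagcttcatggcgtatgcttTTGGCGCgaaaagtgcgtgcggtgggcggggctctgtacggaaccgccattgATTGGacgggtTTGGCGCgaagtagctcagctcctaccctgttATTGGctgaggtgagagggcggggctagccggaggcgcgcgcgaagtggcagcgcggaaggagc
The Cdk1 window holds 2 CHR cores, 3 CCAAT boxes and 1 E2F form. The Ccnb2 window holds 2 CHR cores, 3 CCAAT boxes and no E2F form, and that of Cdc20 holds 1, 2 and none. The windows of Mcm3, Mcm5 and Mcm6 hold no CHR core. They hold 3, 2 and 2 matches of an E2F form, of which 2 in Mcm3 overlap on opposite strands, and 3, 3 and 2 CCAAT boxes.

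All 44 genes were detected in every library and passed the filter of at least 1 FPKM in at least 4 of 10 libraries. Their values ran from 1.75 FPKM (E2f1 in Shb-inactivated replicate 5) to 204 FPKM (Cdk1 in wild-type replicate 4). FPKM is scaled by transcript length, so levels can be compared roughly between genes. Scaling by length does not remove differences that go with base composition or overlapping genes, both described further below. The mean over 10 libraries was 7.27 to 138 FPKM for S phase, 10.8 to 117 FPKM for mitotic and 3.95 to 14.5 FPKM for G1/S genes.

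None of the 44 genes differed between wild-type and Shb-inactivated libraries beyond the spread of the libraries. By limma on log2(FPKM + 1), with Benjamini-Hochberg adjustment over the 12805 genes that passed the filter, 0 members and 0 genes in all (0.0%) had an adjusted p under 0.05. At an unadjusted limma p under 0.05 there were 0 members against 3.45% of all genes tested. At an unadjusted p under 0.05 in the exact permutation test (two-sided, all 210 splits into 4 and 6 libraries) there were 0 members against 3.87% of all genes. The values of the groups overlapped for all 44 members, as they did for nearly every gene. Of the 12805 genes tested, only 23 lay wholly lower and 69 wholly higher in the inactivated libraries. Fold changes are given as the inactivated minus the wild-type mean of log2(FPKM + 1), a scale on which those of low genes come out too small.

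Most members had a slightly lower mean in the inactivated libraries, and the size of this lean depended on single libraries. With each library left out, the median log2 fold change of all members stayed below 0, from -0.31 to -0.047. Of 44 fold changes, 40 were below 0, with a median of -0.18, beside 48.8% below 0 and a median of 0.0055 for all genes tested. The median was -0.24 for S phase genes (13 of 15 below 0), -0.17 for mitotic genes (23 of 25) and -0.24 for G1/S genes (4 of 4). The 4 members above 0 were Pcna, Mcm6, Ccnb2 and Ccna2. Without Shb-inactivated replicate 5 the median of all members was -0.055, with 29 of 44 below 0, and without wild-type replicate 4 it was -0.047, with 28 of 44 below 0. Leaving out wild-type replicate 3 gave -0.31, and leaving out Shb-inactivated replicate 1 gave -0.28. Fewer dividing cells in a sample and less of these transcripts per dividing cell cannot be told apart in bulk RNA.

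**Figure D2:**
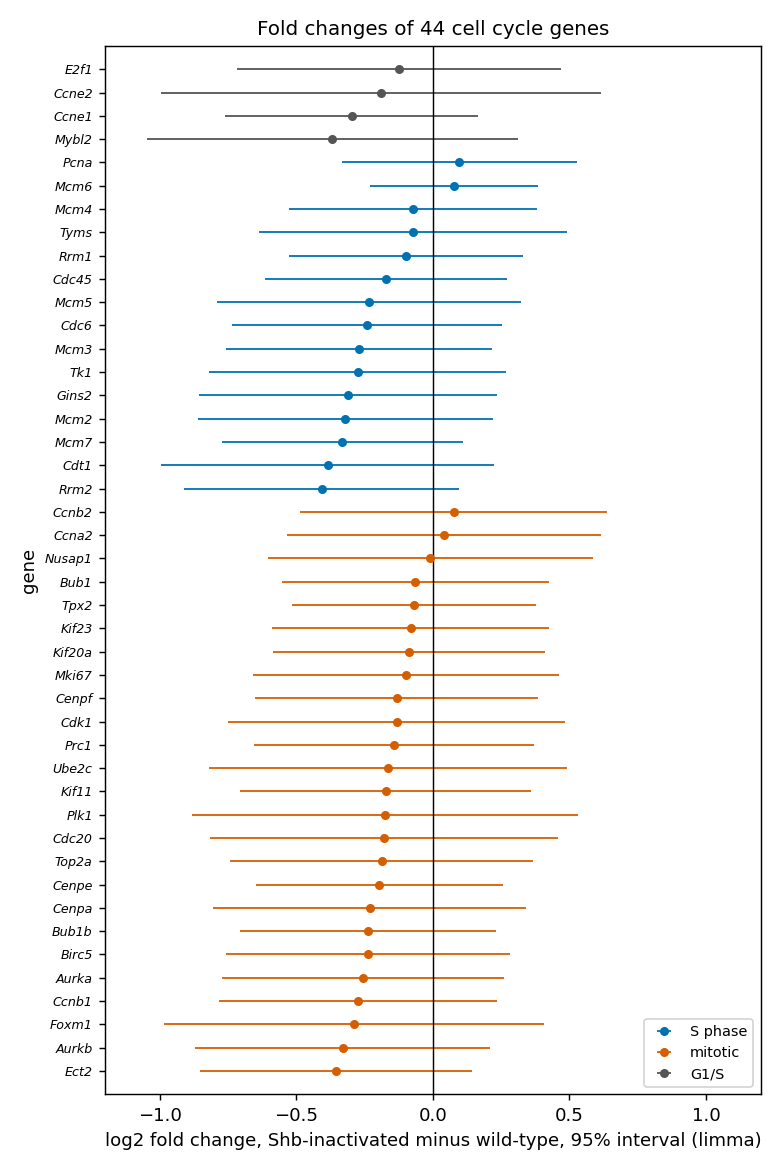
Log2 fold change of each of the 44 genes, as the inactivated minus the wild-type mean of log2(FPKM + 1), with the 95% interval of limma, grouped by phase. Every interval includes 0, and 40 of 44 points lie below it.

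The 44 genes varied mainly between libraries within each group, and moved together. Each gene was set against its own mean over the 10 libraries, and the median over the 44 genes was 102%, 102%, 82.6% and 140% in wild-type replicates 1 to 4. It was 129%, 86.4%, 108%, 96.0%, 56.3% and 86.9% in Shb-inactivated replicates 1 to 6. The same median over all genes tested stayed between 93.7% and 99.4%. The highest and the lowest inactivated library therefore enclosed all but 1 of the wild-type libraries.

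Shb-inactivated replicate 5 was the lowest library of the 10 for 39 of the 44 genes, against 17.6% of all genes tested. No member reached its own mean there, and the members stood at 36.2% to 96.7% of it. The 5 exceptions were Cdk1 and Pcna, lowest in wild-type replicate 1, and Ccne2, Mcm6 and Nusap1, lowest in Shb-inactivated replicate 2. Wild-type replicate 4 was the highest library for 27 of 44 genes, against 7.80% of all genes tested. It was highest for 20 of 25 mitotic genes and 5 of 15 S phase genes. Shb-inactivated replicate 1, in contrast, was highest for 8 of 15 S phase and 2 of 25 mitotic genes, against 7.71% of all genes tested. Relative levels of the 44 genes in that library also rose with their content of guanine and cytosine (Spearman 0.78, described further below). The part of base composition in this contrast of phases was not tested. In both wild-type replicate 4 and Shb-inactivated replicate 1, 42 of 44 members lay above their own mean.

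**Figure D3:**
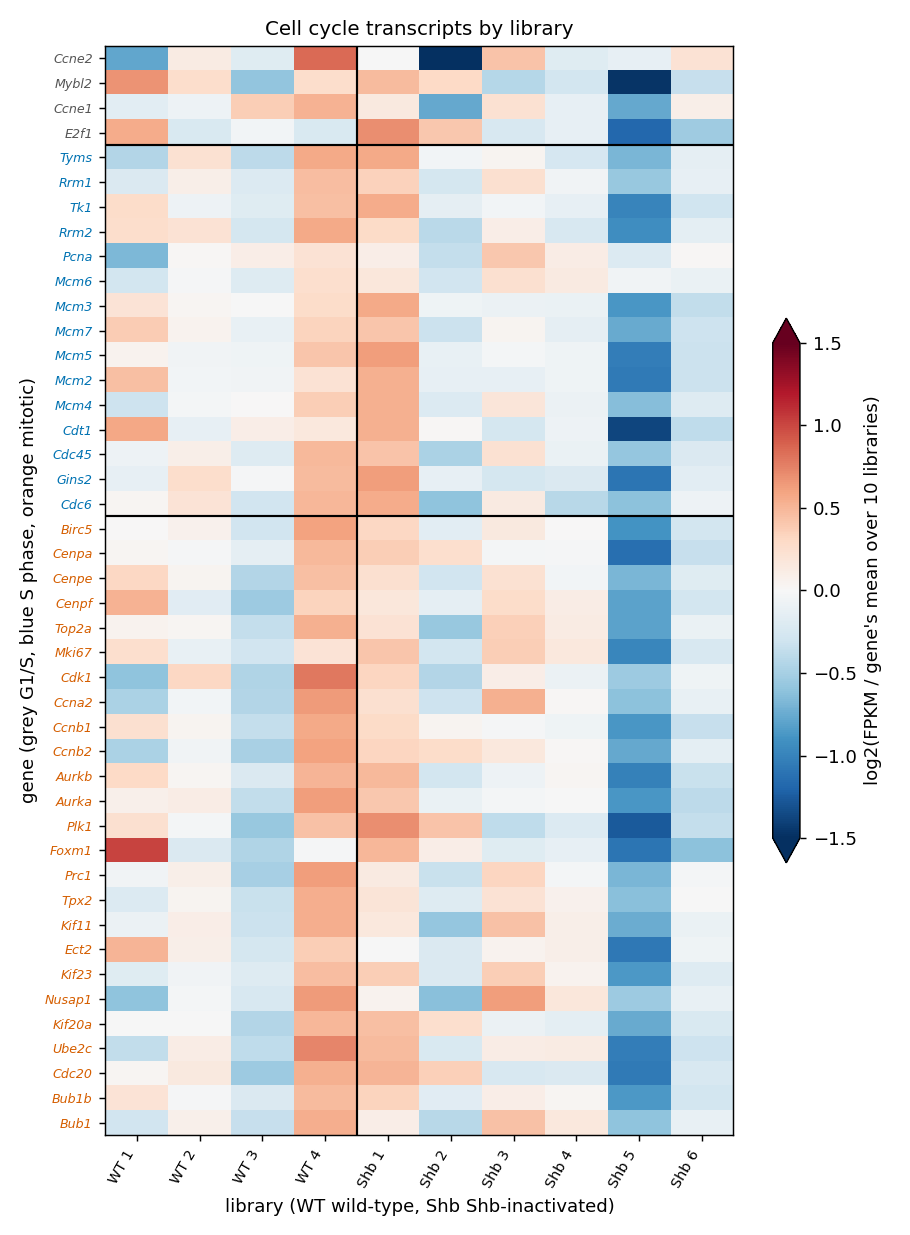
Level of each of the 44 genes in each of the 10 libraries, as log2 of FPKM over the gene's own mean, in rows grouped by G1/S, S phase and mitotic genes and by role. Shb-inactivated replicate 5 is blue throughout (a median of 56.3% of the own mean), and wild-type replicate 4 and Shb-inactivated replicate 1 are red for 42 of 44 genes each.

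Marker levels of other cells differed in the libraries at both ends. In Shb-inactivated replicate 5 the melanoma marker sum was the lowest of all, 17.9 FPKM. The pericyte sum (10 of 10 markers, none at 0) was the highest there, 740 FPKM against 118 to 360 FPKM elsewhere. Pecam1, the gene for CD31, was also highest there, at 1237 FPKM. The sum of all 16 endothelial markers was not, at 6449 FPKM against 6548 FPKM in Shb-inactivated replicate 2. Wild-type replicate 4 and Shb-inactivated replicate 1, with the highest levels of cell cycle genes, had melanoma sums of 105 and 25.1 FPKM and macrophage sums of 81.9 and 111 FPKM. Wild-type replicate 1 had a melanoma sum of 1330 FPKM with cell cycle genes at a median of 102% of their means. The parts of these cells in the levels were not tested beyond the fits with a marker covariate given in the closing section. Neutrophil, T and NK cell, B cell, fibroblast and erythroid sums were at most 1022, 67.6, 196, 543 and 90.7 FPKM in any library.

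The S phase and mitotic sets were set against each other within each library. The mean log2(FPKM + 1) of the 15 S phase genes was 4.75, 4.80, 4.63 and 5.11 in wild-type replicates 1 to 4, and 5.18, 4.52, 4.80, 4.64, 4.03 and 4.54 in Shb-inactivated replicates 1 to 6. That of the 25 mitotic genes was 4.70, 4.71, 4.34 and 5.18, and 4.98, 4.54, 4.83, 4.70, 3.89 and 4.48. Shb-inactivated replicate 5 was thus lowest in both sets, and wild-type replicate 4 and Shb-inactivated replicate 1 were the highest in both. From the lowest to the highest library the S phase mean spanned 1.14 and the mitotic mean 1.29 on the log2 scale.

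The difference of the 2 sets spanned only 0.36. S phase minus mitotic was 0.051, 0.092, 0.29 and -0.067 in the wild-type libraries and 0.20, -0.013, -0.034, -0.057, 0.14 and 0.065 in the inactivated libraries. The group means were 0.092 ± 0.15 (SD, n = 4) and 0.050 ± 0.10 (SD, n = 6), a difference of -0.042 that was smaller than either SD. It was 0.025 without wild-type replicate 3, whose 0.29 was the highest value and whose mitotic genes all stood below their own means. Macrophage and neutrophil marker sums were highest in that library, at 7467 and 1022 FPKM, and their part in this value was not tested. How levels went with base composition also differed between libraries, as described further below. Its part in the S phase minus mitotic values was not tested.

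**Figure D4:**
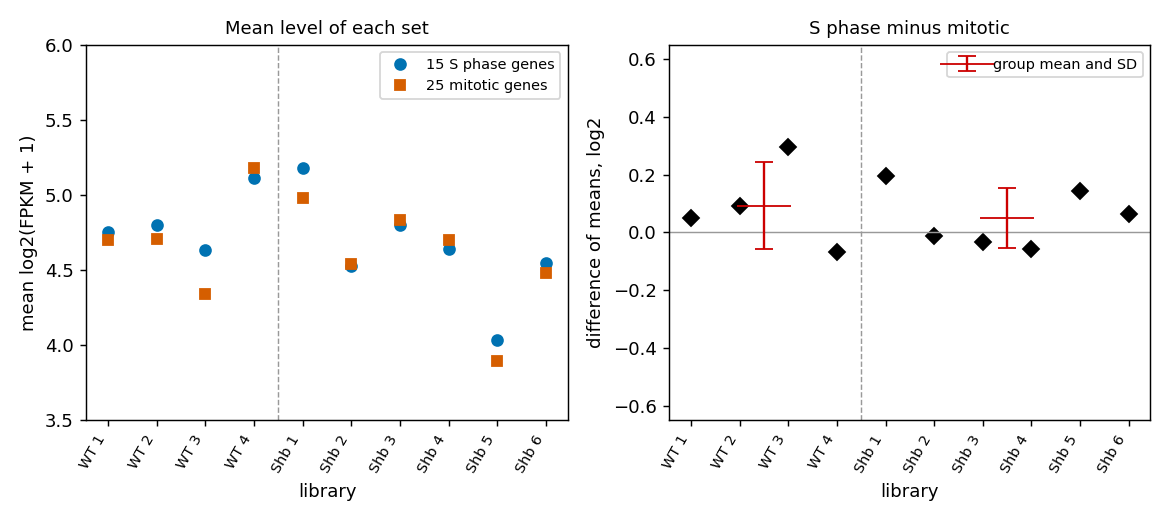
Left, mean log2(FPKM + 1) of 15 S phase genes (circles) and 25 mitotic genes (squares) in each library. Right, their difference per library (diamonds) with the mean and SD of each group. The sets go up and down together over more than 1 log2 unit, and the differences stay between -0.067 and 0.29.

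Of the G1/S genes, E2f1, Ccne1 and Mybl2 had the lowest means of the 44 genes, 3.95, 5.32 and 6.44 FPKM, and Ccne2 averaged 14.5 FPKM. Ccne1 and Ccne2 encode the cyclins E, which activate Cdk2 at the start of S phase. Ccne2 was 8.41, 15.8, 12.8 and 26.2 FPKM in the wild-type libraries, and 4.96 (lowest), 13.9 (median) and 19.4 FPKM (highest) in the inactivated ones. Its highest library was 5.27 times its lowest, the widest ratio among the 44 genes, and the inactivated values lay almost wholly within the wild-type range. Ccne1 was 4.76, 5.05, 6.85 and 7.65 FPKM against 3.12, 5.29 and 6.23 FPKM. Their log2 fold changes were -0.19 (SE 0.36) and -0.30 (SE 0.21), each with a limma adjusted p of 0.989.

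E2f1, the transcription factor that starts the S phase programme, was 5.83, 3.37, 3.84 and 3.38 FPKM in the wild-type libraries and 1.75, 3.48 and 6.43 FPKM (lowest, median and highest) in the inactivated ones. The inactivated group enclosed all 4 wild-type values. The E2f1 log2 fold change was -0.12 (SE 0.27, limma adjusted p = 0.990). Mybl2, which encodes B-Myb, was 10.3, 7.72, 4.26 and 7.76 FPKM against 2.33, 5.20 and 8.97 FPKM, with a log2 fold change of -0.37 (SE 0.31, limma adjusted p = 0.989).

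Among the genes of origin licensing, the replicative helicase and the sliding clamp, Pcna and Mcm6 were the most abundant. Pcna, the sliding clamp of DNA polymerases, was 86.9, 140.0, 148 and 160.3 FPKM in the wild-type libraries. In the inactivated libraries its lowest, median and highest values were 108, 144 and 183 FPKM. The wild-type replicate 1 value was the lowest of the 10, and the other 9 overlapped. The Pcna fold change was 0.097 (SE 0.19, 95% interval -0.33 to 0.53, limma adjusted p = 0.990, exact permutation p = 0.676).

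Mcm6, a subunit of the Mcm2-7 helicase, was 55.5, 66.6, 59.0 and 80.2 FPKM in wild-type and 55.2, 69.7 and 79.8 FPKM (lowest, median and highest) in inactivated libraries. Its highest library was 1.45 times its lowest, the narrowest ratio among the 44 genes, and the ranges of the groups almost coincided. Mcm6 had a fold change of 0.077 on the log2 scale (SE 0.14, 95% interval -0.23 to 0.39, limma adjusted p = 0.989). Mcm3, another subunit, was 43.7, 38.5, 37.7 and 45.7 FPKM against 20.6, 35.4 and 56.0 FPKM, so that both the lowest and the highest library were inactivated ones. The fold change of Mcm3 was -0.27 (SE 0.22, 95% interval -0.76 to 0.22, limma adjusted p = 0.989).

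The remaining helicase subunits Mcm2, Mcm4, Mcm5 and Mcm7 averaged 23.5, 21.3, 25.5 and 25.8 FPKM over the 10 libraries. Each was highest in Shb-inactivated replicate 1 and lowest in Shb-inactivated replicate 5, as Mcm3 was: Mcm5 was 39.5 FPKM in the former and 12.5 FPKM in the latter. The licensing factors Cdc6 and Cdt1, which load the helicase on origins, averaged 7.27 and 9.64 FPKM. The helicase activators Cdc45 and Gins2 averaged 9.57 and 9.45 FPKM. Cdt1 was 14.4 FPKM in wild-type replicate 1, its highest library, and 3.70 FPKM in Shb-inactivated replicate 5. No member had an exact permutation p under 0.05 with all 10 libraries, or with any 1 library left out except Shb-inactivated replicate 1. Without that library the exact permutation p was 0.0317 for Mcm2, Mcm3 and Mcm7 and 0.0159 for Gins2, all lower in the inactivated group. It was the highest library for each of these 4 genes, so leaving it out lowers their inactivated mean. These are 4 of 44 members (9.09%), beside 4.02% of all genes tested in the same 9 libraries, and no member had a limma adjusted p under 0.05.

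Genes of nucleotide supply followed the same libraries. Tyms, thymidylate synthase, was 36.1, 57.2, 37.1 and 72.5 FPKM in the wild-type libraries and 30.3, 45.9 and 72.2 FPKM (lowest, median and highest) in the inactivated ones, with wild-type replicate 4 and Shb-inactivated replicate 1 nearly equal at the top. The fold change of Tyms was -0.074 (SE 0.25, limma adjusted p = 0.995). Rrm2, the regulated subunit of ribonucleotide reductase, had the smallest unadjusted limma p of the 44 genes, and is given in full for that reason, after its values were seen. It was 36.1, 34.9, 24.9 and 44.4 FPKM in wild-type and 15.7, 26.2 and 36.5 FPKM in inactivated libraries.

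The lowest wild-type Rrm2 value lay below the median of the inactivated group, and its highest inactivated value lay above 3 of 4 wild-type values. The means were 35.1 ± 7.98 FPKM (SD, n = 4) and 26.5 ± 7.27 FPKM (SD, n = 6). Its fold change was -0.41 on the log2 scale (SE 0.23, 95% interval -0.91 to 0.096), with a limma p of 0.102, 0.989 after adjustment, and an exact permutation p of 0.148. Rrm1, the large subunit, and Tk1, thymidine kinase, averaged 37.2 and 30.6 FPKM, both with their lowest value in Shb-inactivated replicate 5.

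The mitotic kinase Cdk1 had the highest single value of the set. Wild-type replicates 1 to 4 held 77.1, 145, 85.6 and 204 FPKM of Cdk1, and the inactivated libraries 80.2, 111 and 146 FPKM (lowest, median and highest). The wild-type values alone spanned the whole range, with 2 of 4 below the inactivated median. The means were 128 ± 58.9 FPKM (SD, n = 4) and 110 ± 24.5 FPKM (SD, n = 6), with a log2 fold change of -0.13 (SE 0.28, 95% interval -0.75 to 0.48, limma adjusted p = 0.990).

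Ccna2, cyclin A2, was 36.7, 49.7, 37.6 and 79.3 FPKM in wild-type and 33.4, 49.5 and 74.0 FPKM in inactivated libraries, so that the ranges coincided. On the log2 scale its fold change was 0.040 (SE 0.26, limma adjusted p = 0.997). The cyclins B, partners of Cdk1, averaged 34.1 FPKM (Ccnb1) and 33.8 FPKM (Ccnb2). The kinases Aurkb, Aurka and Plk1, which control chromosome attachment, centrosomes and mitotic entry, averaged 18.5, 13.8 and 11.2 FPKM. Foxm1, the transcription factor of the mitotic genes, averaged 10.8 FPKM and was 21.7 FPKM in wild-type replicate 1 against 5.03 to 15.3 FPKM in all other libraries.

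Top2a and Mki67 are widely used as proliferation markers. Top2a, the topoisomerase that untangles sister chromatids, was 99.1, 97.3, 74.6 and 138 FPKM in wild-type libraries and 54.9, 96.9 and 123 FPKM (lowest, median and highest) in inactivated ones. The inactivated median lay within the wild-type values, and wild-type replicate 4 was the highest of all. Its log2 fold change was -0.19 (SE 0.25, 95% interval -0.74 to 0.37, limma adjusted p = 0.989). Mki67, which encodes the Ki-67 protein that coats mitotic chromosomes, averaged 40.5 FPKM. It was 41.3 ± 7.23 FPKM (SD, n = 4) and 39.98 ± 12.9 FPKM (SD, n = 6), and 43.8 FPKM in the inactivated group without replicate 5.

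At the centromere, Birc5, which encodes the survivin subunit of the chromosomal passenger complex, was 41.6, 43.5, 34.0 and 63.1 FPKM in wild-type and 22.2, 39.4 and 51.4 FPKM in inactivated libraries. For Birc5 the fold change was -0.24 (SE 0.23, limma adjusted p = 0.989). Wild-type replicate 4 alone lay above the inactivated range. The centromere histone Cenpa averaged 31.5 FPKM, and the kinetochore proteins Cenpe and Cenpf 12.7 and 11.3 FPKM.

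Of the checkpoint and anaphase genes, Ube2c, the ubiquitin-conjugating enzyme of the anaphase-promoting complex, was 32.1, 44.9, 31.8 and 69.1 FPKM against 20.2, 40.1 and 57.7 FPKM. The Ube2c fold change was -0.16 (SE 0.30, limma adjusted p = 0.989). Cdc20 and the spindle checkpoint kinases Bub1b and Bub1 averaged 24.9, 17.9 and 15.7 FPKM. All 4 of these genes were highest in wild-type replicate 4 and lowest in Shb-inactivated replicate 5.

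The spindle gene Prc1, a microtubule bundler needed for cytokinesis, was 39.1, 43.0, 28.8 and 62.6 FPKM in wild-type and 25.2, 39.8 and 50.7 FPKM in inactivated libraries. The Prc1 fold change was -0.14 (SE 0.23, limma adjusted p = 0.989). The spindle assembly factor Tpx2 averaged 28.8 FPKM, the spindle motor Kif11 21.9 FPKM and the microtubule-binding Nusap1 15.2 FPKM. The cytokinesis genes Ect2, Kif23 and Kif20a averaged 16.4, 15.7 and 12.3 FPKM. Of these 7 genes, 6 were highest in wild-type replicate 4, and Ect2 was highest in wild-type replicate 1.

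In several libraries the level of a gene relative to its own mean varied with the base composition of its transcript. Guanine and cytosine (GC) made up 36.3% (Ccne2) to 58.8% (Cdt1) of the longest coding transcript of the 44 genes. Across the 44 genes, the Spearman correlation between GC content and the level relative to the gene's own mean was 0.78 and 0.58 in Shb-inactivated replicates 1 and 2. The value was -0.79, -0.44, -0.57 and -0.57 in replicates 3 to 6, and 0.41, -0.13, 0.14 and -0.28 in wild-type replicates 1 to 4. These points share a library and are not independent. Over 11060 tested genes with a coding transcript it was 0.43, 0.56, -0.44, -0.060, -0.41 and -0.26 in the inactivated and 0.25, -0.16, 0.016 and -0.17 in the wild-type libraries. The 3 libraries low in small nucleolar RNAs were those with the highest values for all genes, and also for the 44 genes.

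The 10 members of highest GC content, among them Cdt1, E2f1, Mybl2, Plk1 and Cdc20, and the 10 of lowest, among them Ccne2, Ect2, Bub1, Nusap1 and Kif11, therefore ranked the libraries differently. In Shb-inactivated replicate 3 the low-GC genes had a median of 125% of their own mean and the high-GC genes 84.6%. The 2 medians were 112% and 145% in replicate 1. In replicate 5 both were low, at 60.8% and 46.6%, and in wild-type replicate 4 both were high, at 145% and 128%. Without the 3 libraries low in small nucleolar RNAs (Shb-inactivated replicates 1 and 2 and wild-type replicate 1) the median log2 fold change of the 44 genes was -0.31, with 43 of 44 below 0. No member had a limma adjusted p under 0.05 there either, and 1 (Gins2) had an exact permutation p under 0.05, of 0.0286, the smallest that 35 splits can give. That is 2.27% of members beside 2.04% of all genes tested in the same 7 libraries. This choice of libraries was made after seeing the data.

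**Figure D5:**
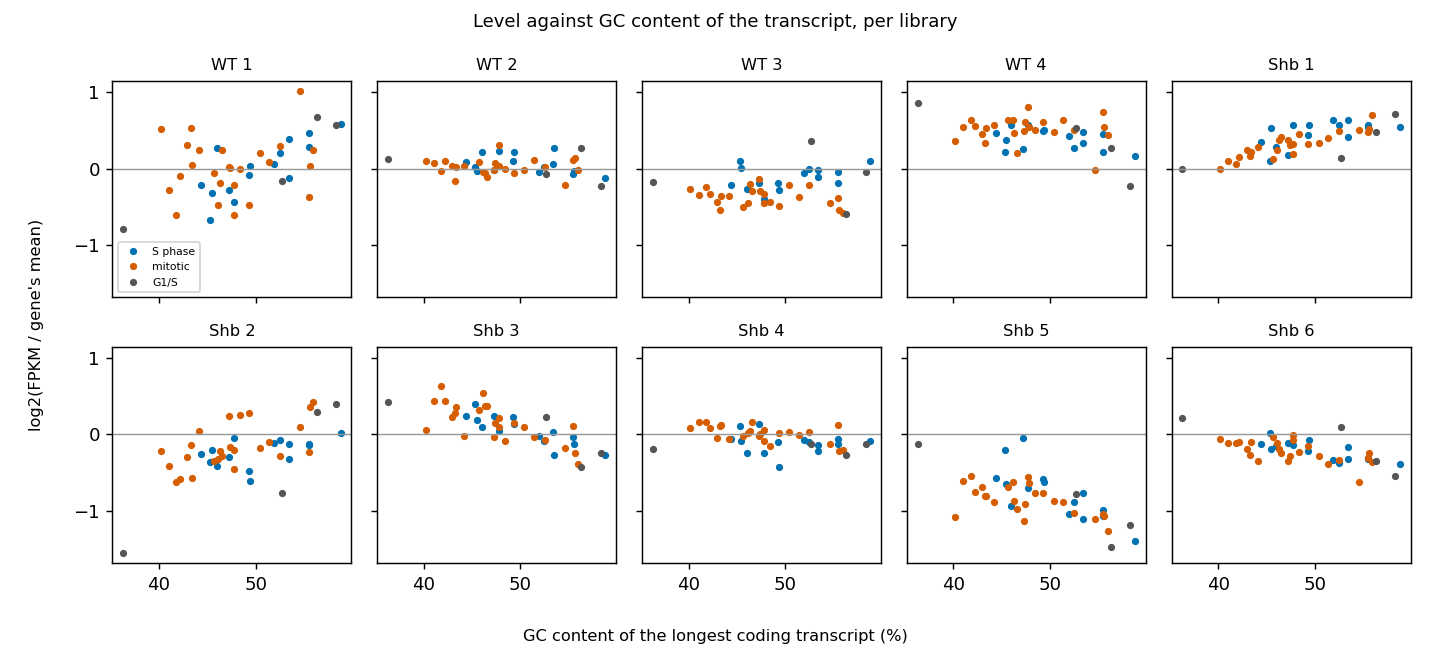
GC content of the longest coding transcript (percent, horizontal) against log2 of FPKM over the gene's own mean (vertical) for the 44 genes, with 1 panel per library. The points slope upward in Shb-inactivated replicates 1 and 2 (Spearman 0.78 and 0.58) and downward in replicate 3 (-0.79), and lie below 0 throughout in replicate 5.

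Other genes of the same pathways leaned the same way as the members without any past the threshold. Of 39 other replication genes, 35 had a fold change below 0 (median -0.13), and of 55 other mitotic genes 49 did (median -0.16). Over all genes tested, 48.8% were below 0, with a median of 0.0055. These lists were measured in the same 10 libraries as the members, so they are not separate evidence for a lean. None of the 94 other replication and mitotic genes had a limma adjusted p under 0.05. The histone assembly factor Chaf1b, named after its values were seen, was the 1 gene of the 94 with an unadjusted limma p under 0.05 (0.0416, adjusted 0.989, exact permutation p = 0.0667). Of all genes tested, 3.45% had such a limma p, so 1 of 94 is no more than that share. Chaf1b was at 12.2 ± 2.17 FPKM (SD, n = 4) and 8.82 ± 2.57 FPKM (SD, n = 6). Shb-inactivated replicate 5 was the lowest library for 19 of the 39 and 41 of the 55 genes, against 17.6% of all genes tested.

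Of the most abundant other replication genes, none had a limma adjusted p under 0.05. Slbp, which binds histone messenger RNA, was 51.6 ± 10.01 FPKM (SD, n = 4) and 49.9 ± 8.66 FPKM (SD, n = 6). Tipin, a fork protection factor, was 35.3 ± 15.3 and 35.3 ± 6.17 FPKM, and the maintenance methyltransferase Dnmt1 was 36.1 ± 5.67 and 31.1 ± 8.63 FPKM. Of the other mitotic genes, the Cdk-binding Cks2 was 73.3 ± 30.7 and 70.7 ± 8.01 FPKM, the condensin subunit Smc4 was 59.9 ± 12.6 and 60.9 ± 12.7 FPKM, and the spindle protein Tacc3 was 37.0 ± 14.5 and 35.1 ± 8.94 FPKM.

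Genes that act before S phase, or that hold cells out of it, were counted in the same way. A list of 25 genes held G1 cyclins, Cdks, pocket proteins, Cdc25a, E2F factors with Tfdp1 and Tfdp2, MuvB subunits, Myc and Mycn. Of these 25, 16 had a fold change below 0 (median -0.050), beside 48.8% of all genes tested. Of 17 Cdk inhibitors and brakes 7 did (median 0.029). No gene of either list had an unadjusted limma p under 0.05, beside 3.45% of all genes tested. Ccnd1, cyclin D1, was 163 ± 39.0 FPKM (SD, n = 4) and 177 ± 30.6 FPKM (SD, n = 6), its partner Cdk4 was 139 ± 22.7 and 125 ± 30.4 FPKM, and the pocket protein gene Rb1 was 49.8 ± 5.85 and 64.4 ± 25.7 FPKM. Of the brakes, the antiproliferative Btg2 was 58.2 ± 46.3 and 56.4 ± 13.0 FPKM, Btg1 was 63.3 ± 34.8 and 52.0 ± 5.97 FPKM, and the p53 target Ccng1 was 34.3 ± 5.03 and 35.8 ± 9.72 FPKM. The wild-type SD of Btg2 came from replicate 3, rich in macrophage transcripts, at 128 FPKM against 33.9 to 36.1 FPKM in the others. Btg1 too was high in that library, at 116 FPKM against 44.4 to 46.9 FPKM in the other wild-type libraries, which raised its wild-type mean.

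For some members the deposited values cannot be assigned to the gene alone. Exons of Ccna2, Ccne2, Cdc20, Cdc45, Gins2, Kif20a, Mcm7, Nusap1, Plk1, Prc1, Tk1 and Ube2c overlap exons of a gene on the opposite strand in GENCODE M21. Ccnb1, Ccnb2, Pcna and Tyms have a named processed copy elsewhere in the genome. The libraries were made with a stranded kit, and whether counting used strand is not given in the sources used here, so these values are uncertain to that degree. Exons of Foxm1 (with Gm44596 and Tex52), Top2a (with Gm23451) and Mcm7 (with Mir25 and Mir93) overlap a gene on the same strand, which counting by strand would not separate.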

How the data were processed

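Libraries were made from RNA of CD31-positive, CD11b-depleted tumour cells with a stranded kit and ribosomal RNA depletion, per the labels' protocols. The authors deposited FPKM values per gene symbol, 1 file per library, with a decimal comma that was read as a decimal point. Alignment and quantification tools named in the submitters' processing notes are Cufflinks 2.2.1 and TopHat2 2.1.1, with the build GRCm38. The annotation is not given in the sources used here. All 10 files held the same 28454 symbols. Depth is unknown, since FPKM keeps no totals. FPKM sums were 477329 to 576687, Spearman correlations between libraries 0.841 to 0.977, and 0 pairs of libraries were identical.

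Values were taken as log2(FPKM + 1). A gene was tested if 4 or more of the 10 libraries reached 1 FPKM, which left 12805 genes. These were fitted in R 4.3.3 by limma 3.58.1 (mean-variance trend, no covariate, two-sided, Benjamini-Hochberg over all genes tested), 4 wild-type against 6 Shb-inactivated libraries. The exact permutation test used all 210 splits and has a smallest p of 0.00476. Sets are described by counts and medians with no test of their own. GC content is that of the longest protein-coding transcript in GENCODE M21, and gene overlaps come from the same annotation. Promoter windows were RefSeq's on GRCm38.p6. Their positions were compared with the starts of GENCODE M21 transcripts, on the same build.

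The members and lists were chosen with earlier results of these data known. Levels are given for all 44 members. Fold changes are given for the 4 S phase and 6 mitotic members of highest mean FPKM, the 4 G1/S members, and any with an adjusted limma p or an exact p under 0.05, plus Rrm2. From each other pathway list the 3 genes of highest mean FPKM are given. Alternatives changed the pseudocount, filter, scaling, library weights, covariates, replicate block and libraries used.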

Additional observations from a re-analysis of the deposited data

Results flagged for a closer look

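In each group of 4 or 6 libraries, the gap between the most extreme value and its neighbour was compared with the group's range by Dixon's test at 95%, on the log2(FPKM + 1) scale. Of 96 groups of values (44 genes and 4 set means or differences in each group), 2 held a library that stood apart, where chance gives about 1 in 20. Ccne2 was 4.96 FPKM in Shb-inactivated replicate 2, and the next lowest inactivated library was 12.7 FPKM. Ect2 was 7.79 FPKM in Shb-inactivated replicate 5, and the next lowest was 14.1 FPKM. Ccne2 and Ect2 have the lowest GC content of the 44 genes, and Shb-inactivated replicate 2 is 1 of the 3 libraries low in small nucleolar RNAs. In replicate 2 the 10 members of lowest GC content had a median of 78.5% of their own mean and the 10 of highest 104%. In replicate 5 the order was the other way, 60.8% and 46.6%. Whether base composition or the low small nucleolar RNAs move the Ccne2 and Ect2 values was not tested.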

How the results depend on the processing

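The count of members, of other pathway genes and of all genes with an adjusted limma p under 0.05 was 0 under all 22 alternatives. The count of members with an exact permutation p under 0.05 ran from 0 to 4 of 44 with each library left out, where 2.65% to 5.55% of all genes tested passed. It was 4 (9.09%) without Shb-inactivated replicate 1, beside 4.02% of all genes, and 0 without any other single library. Shb-inactivated replicate 1 was the highest library for each of the 4 genes. Leaving out the 3 libraries low in small nucleolar RNAs, a choice made after seeing the data, gave 1 (2.27%), beside 2.04%. The median log2 fold change of all members ran from -0.31 to -0.047 with each library left out. For S phase members leaving out wild-type replicate 4 gave -0.13, leaving out Shb-inactivated replicate 5 gave -0.12 and leaving out Shb-inactivated replicate 1 gave -0.39. For mitotic members the values were -0.31 without wild-type replicate 3, -0.033 if wild-type replicate 4 and -0.029 if Shb-inactivated replicate 5 was left out. Without the 3 libraries rich in macrophage transcripts the median of all members was -0.37, with library quality weights -0.31, and -0.18 and -0.19 with the melanoma or the macrophage marker mean in the model. Pseudocounts of 0.1 and 5 gave -0.19 and -0.15, and scaling to a common sum -0.14.

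Same-numbered libraries of the groups share only a number: their deviations from the group means correlated at 0.44, -0.32, 0.71 and -0.55. With the replicate number as a block the median was -0.021 for all members, -0.047 for S phase and 0.048 for mitotic members, with no gene past the threshold. Under that block the log2 fold change turned to 0.088 for Tyms, 0.092 for Ube2c and 0.14 for E2f1. With library quality weights it turned to -0.040 for Pcna, -0.052 for Mcm6 and -0.23 for Ccna2. With the melanoma marker mean it turned to -0.073, -0.037 and -0.11 for these genes and to 0.083 for E2f1. Without the libraries rich in macrophage transcripts it was -0.051 for Mcm6 and -0.23 for Ccna2, and without those low in small nucleolar RNAs -0.028 for Pcna and -0.092 for Ccna2. With each library left out it ran from -0.096 to 0.20 for Pcna, -0.090 to 0.27 for Ccna2, -0.26 to 0.024 for E2f1, -0.21 to 0.12 for Tyms, -0.34 to 0.13 for Cdk1, -0.30 to 0.069 for Ube2c, -0.32 to 0.049 for Prc1 and -0.43 to 0.077 for Ccne2. The cause was not tested. None of these fold changes passed the threshold in any fit. S phase minus mitotic, inactivated minus wild-type, ran from -0.095 to 0.025 with each library left out and was 0.073 without the libraries rich in macrophage transcripts.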

Other observations

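In Shb-inactivated replicate 5, the lowest library for 39 of the 44 cell cycle genes, the genes that restrain the cycle went both ways. Of 17 Cdk inhibitors and brakes, 3 had their highest value of the 10 libraries there (Cdkn1b at 55.3 FPKM, Cdkn2b at 22.3 FPKM and Ccng2 at 27.1 FPKM) and 3 had their lowest (Cdkn2c at 12.1 FPKM, Cdkn2d and Fzr1 at 6.03 FPKM each). Of the 25 genes listed with the G1 cyclins, Cdks and pocket proteins, 2 were highest there and 9 were lowest. The 2 were Rb1 at 115 FPKM and Tfdp2 at 10.5 FPKM. Over all genes tested, 18.2% were highest and 17.6% lowest in that library, so the share of brakes at either end is close to that of all genes. This library was looked at after its values were seen.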
